A study of Sus scrofa with 6 samples.

Results

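The transcripts described here were assembled from the reads of the study and were not classed as long non-coding RNAs (lncRNAs). They were chosen by name alone, as the rows of the deposited transcript table whose transcript identifier and transcript name both start with TCONS, and 12692 of the 83119 transcripts met this rule (15.3%). They are called assembled transcripts below, and the remaining rows are 7386 lncRNAs, which were also assembled, and 63041 known Ensembl transcripts. The study compared longissimus dorsi (LD), a long muscle along the back, between 3 Laiwu pigs with extremely high intramuscular fat (IMF) content (S-H group, LW63, LW70 and LW119) and 3 with extremely low IMF content (S-L group, LW82, LW88 and LW90). Laiwu is a Chinese breed, each pig gave 1 library made from total RNA without ribosomal RNA, and the pigs were picked from a larger herd with sex and carcass weight taken into account. All of the pigs were castrated males, their ages are not in the labels, and pigs chosen for the extremes of a trait do not represent the herd.

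One gene can give several transcripts, which differ in where transcription starts and ends and in which exons are joined. A program that assembles reads writes such a transcript whenever the reads follow a path that the annotation lacks, and assigns it to a known gene where it matches one. Screens for lncRNAs leave behind the assembled transcripts with coding potential or without the required exon structure, but why each transcript was left out is not in the table. The table gives the outer ends of each transcript on Sscrofa11.1 but neither strand nor exons, so every overlap stated here is one of genomic spans. Where a transcript or gene is said below to start or end, the lower and the higher coordinate are meant, not the direction of transcription.

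The values are FPKM, fragments per kilobase of transcript and per 1000000 mapped fragments, which the authors computed within each library. Between 638536 (LW119) and 846661 (LW82) FPKM were summed per library. Library read totals are stated in the study's text, but the number of reads behind a single value is not in the table. Of 10 lists of cell type markers, 1 differed without overlap of the groups: the 10 adipocyte genes summed to between 532 and 1441 FPKM in S-H and between 363 and 469 FPKM in S-L, and all 10 had the higher mean in S-H. The 6 fast fibre genes in the table summed to between 11778 and 17844 FPKM in S-H and between 13769 and 30104 FPKM in S-L, and none had the higher mean in S-H. The 7 slow fibre genes summed to between 9180 and 10837 FPKM in S-H and between 6159 and 9547 FPKM in S-L, and all 7 had the higher mean in S-H. So did all macrophage and red blood cell markers, but no nerve marker. All ranges but the adipocyte one overlapped, and no marker in the table was at 0 in every pig. The part of adipocyte or fibre content in the results was not tested. In whole muscle, fewer cells of a type and less RNA per cell cannot be told apart.

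Most assembled transcripts lay in known genes. An Ensembl gene was the host of 11269 (88.8%), spread over 5370 host genes, and the other 1423 were placed in loci of their own, with names that start with XLOC. A single assembled transcript was found in 3060 host genes (57.0%) and 5 or more in 470. The largest numbers in a host gene with a symbol were 38 in CCL3L1, a chemokine gene, 23 in PHF21A, a subunit of a histone demethylase complex, 21 in MAX, the partner of MYC, and 20 in MBNL1, a regulator of splicing in muscle. The most in any host, 47, lay in ENSSSCG00000041364, in the region of the swine leukocyte antigen (SLA) genes.

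Within the 11269, both ends lay inside the span of the known transcripts of the host gene for 3490 (31.0%), 1 end lay outside for 4832 (42.9%) and both ends lay outside for 2947 (26.2%). Where a transcript ran past the host, the median reach was 8.62 kb, with 3708 transcripts reaching over 10 kb and 1161 at most 200 bases. Both ends fell on ends of known transcripts of the host in 1086 cases (9.64%), 1 end in 3863 (34.3%) and neither in 6320 (56.1%). The span of another known gene was overlapped by 6507 (57.7%). In 54 cases 1 end was an end of the host gene and the other was exactly an end of a different known gene.

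The 1423 transcripts not assigned to an Ensembl gene were also compared with gene spans, and 947 of them overlapped the span of an Ensembl gene all the same. For the 1272 on placed chromosomes, 1124 overlapped a RefSeq gene of the same assembly, 930 of them a protein-coding one, and 64 overlapped neither a RefSeq gene nor an Ensembl gene. Their median level was close to that of the others, 0.242 FPKM against 0.251 FPKM for those with a host gene. They were above 0 in every pig in 48.1% of cases, against 50.2% for those with a host gene.

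The typical assembled transcript was weak but present in most pigs. The median of the mean FPKM over the 6 pigs was 0.249, with quartiles of 0.0808 and 0.685, against 0.183 for lncRNAs and 0.0325 for known transcripts. A mean of at least 1 FPKM was reached by 2281 (17.97%), of at least 10 FPKM by 251 and of at least 100 FPKM by 40. The 8 highest held 26.6% of the summed FPKM of all assembled transcripts and the 100 highest held 61.5%.

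All 6 pigs had a value above 0 for 6337 assembled transcripts (49.9%), 5 pigs for 1487, 4 for 1157, 3 for 972, 2 for 939 and 1 for 1023, and 777 (6.12%) were listed at 0 in every pig. For lncRNAs, 41.6% were above 0 in all pigs and 6.16% in none, and for known transcripts 35.3% and 29.9%. Per pig, 9467 (LW63), 9360 (LW70) and 9638 (LW119) assembled transcripts were above 0 in S-H and 9356 (LW82), 8922 (LW88) and 9159 (LW90) in S-L. The lowest S-H pig lay just above the highest S-L pig, and the difference of 343 transcripts had an exact two-sided permutation p of 0.10, the smallest that 3 pigs against 3 allow. By the read totals in the study's text, LW88, with the fewest above 0, also had the fewest clean reads. LW90 had the most clean reads but fewer transcripts above 0 than any S-H pig. The part of read depth in this difference was not tested. Above 1 FPKM the groups overlapped and the difference was 3.67 transcripts (exact two-sided permutation test, p = 1).

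**Figure D1:**
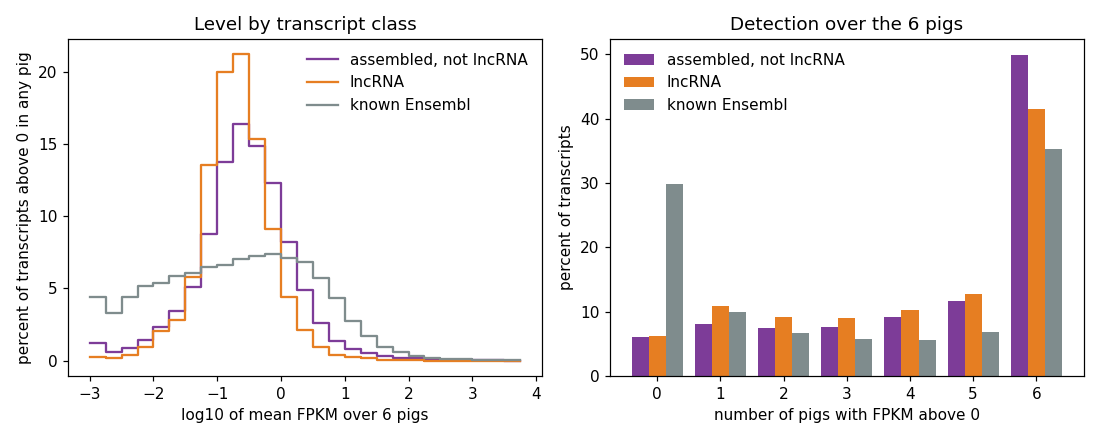
Left, the share of transcripts (percent of those above 0 in any pig) by log10 of the mean FPKM over 6 pigs, for assembled transcripts not classed as lncRNA, lncRNAs and known Ensembl transcripts; values beyond either end are in the end bins. Right, the percent of each class above 0 in 0 to 6 pigs. Assembled transcripts and lncRNAs peak in the same bin, assembled transcripts have more of their share at higher levels, and theirs is the largest share above 0 in all 6 pigs, 49.9%.

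Within each pig the share above 0 was higher among assembled transcripts than among lncRNAs, by 4.87 percentage points on average (range over pigs 3.41 to 6.92), and than among known transcripts, by 21.9 points (21.2 to 22.7). Both differences had the same direction in 6 of 6 pigs (exact two-sided sign-flip test, p = 0.0312 each, the smallest that 6 pigs allow). At a minimum of 1 FPKM the order against known transcripts turned, with the assembled transcripts 2.83 points lower in 6 of 6 pigs. Among values above 0, the median FPKM of assembled transcripts was between 0.334 and 0.432 in the 6 pigs, which exceeded that of lncRNAs by 0.0833 FPKM and fell below that of known transcripts by 0.111 FPKM on average (exact two-sided sign-flip test, p = 0.0312 each). The classes differ in how they were defined, since a known transcript is listed whether or not any read supports it.

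In sum, the assembled transcripts reached 26589 FPKM (LW63), 31637 FPKM (LW70) and 26264 FPKM (LW119) in S-H, and 25473 FPKM (LW82), 25969 FPKM (LW88) and 24248 FPKM (LW90) in S-L. As a share of the library this was 3.26%, 4.07% and 4.11% in S-H and 3.01%, 3.28% and 3.04% in S-L. The groups overlapped through LW63 and LW88, and the means, 3.82% ± 0.479 (SD, n = 3) and 3.11% ± 0.151 (SD, n = 3), had an exact two-sided permutation p of 0.20. When RNase MRP, RNase P and signal recognition particle RNAs, which make up much of the library sums, were left out of the total, the shares were 8.01% ± 0.381 and 7.85% ± 0.587 (SD, n = 3 each, exact two-sided permutation test, p = 0.60).

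The 8 most abundant assembled transcripts lay mostly in or over genes of the respiratory chain, the ribosome and the sarcomere. TCONS_00270360 (chromosome 9, 4700456 to 4702191) had 1674, 2401 and 1255 FPKM in LW63, LW70 and LW119, and 2409, 2090.1 and 1719 FPKM in LW82, LW88 and LW90. It forms a locus of its own inside the Ensembl span of HBB (4621187 to 4809453), the beta chain of haemoglobin. It overlaps a microRNA gene but no RefSeq gene. The known HBB transcripts summed to 600.4, 364 and 330 FPKM in S-H and 294, 416 and 137 FPKM in S-L. This transcript thus exceeded the gene around it in every pig, and its order over the pigs was not that of HBB.

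TCONS_00152077 (chromosome 2, 43174 to 70760) is assigned to SIRT3, a mitochondrial deacetylase, and had 1011, 1279.6 and 681 FPKM in S-H and 1228, 980.4 and 903 FPKM in S-L. It held 99.5% ± 0.429 (SD, n = 6) of the summed FPKM of SIRT3, whose known transcripts reached at most 3.86 FPKM. The transcript runs 15659 bases past the end of SIRT3, across PSMD13, and takes in RefSeq COX8H (69199 to 70730), a subunit of cytochrome c oxidase. A SIRT3 level summed over transcripts is therefore almost wholly the level of this one.

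RPL34, a protein of the large ribosomal subunit, had TCONS_00268060 (chromosome 8, 113467681 to 113471980) at 797, 935 and 1141 FPKM in S-H and 726, 548 and 767 FPKM in S-L, which was 90.4% ± 11.9 (SD, n = 6) of the gene. NDUFA4, a small subunit of the respiratory chain, had TCONS_00283452 (chromosome 9, 80637087 to 80644326) at between 507 and 1268 FPKM, 94.9% ± 2.76 (SD, n = 6) of the gene. MYL3, the essential light chain of slow and cardiac myosin, had TCONS_00073325 (chromosome 13, 29730074 to 29735701) at 858, 897 and 552 FPKM in S-H and 953, 551 and 621 FPKM in S-L. The groups overlapped for NDUFA4 and MYL3, and for RPL34 the lowest S-H pig lay just above the highest S-L pig (limma, unadjusted p = 0.0749). In MYL3, 99.2% ± 0.572 (SD, n = 6) of the sum came from the assembled transcript, which ends 115 bases beyond the known ones.

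RPL39, also of the large ribosomal subunit, was carried wholly by TCONS_00304811 (X chromosome, 98178106 to 98181390), at between 565 and 881 FPKM, with its known transcript listed at 0 in every pig. TCONS_00184364 (chromosome 4, 37074535 to 37089410) had no Ensembl host and covered the span of RefSeq COX6C, another cytochrome c oxidase subunit, at between 451 and 982 FPKM. TCONS_00141171 (chromosome 2, 1248077 to 1253893) begins where SYT8, a synaptotagmin, begins and ends where TNNI2, the inhibitory troponin subunit of fast fibres, ends. It had 794, 1045 and 232 FPKM in S-H and 481, 90.5 and 264 FPKM in S-L, while the known SYT8 transcripts were listed at 0 in every pig. The known TNNI2 transcripts summed to 47.7, 53.5 and 720.4 FPKM in S-H and 30.6, 4210 and 4451 FPKM in S-L, so the pigs with the lowest TNNI2 sums were the 3 with the most of the transcript named after SYT8. None of the 8 passed the limma test between the groups described below, none had an unadjusted p below 0.05, and their log2 fold changes lay between -0.26 and 1.35.

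**Figure D2:**
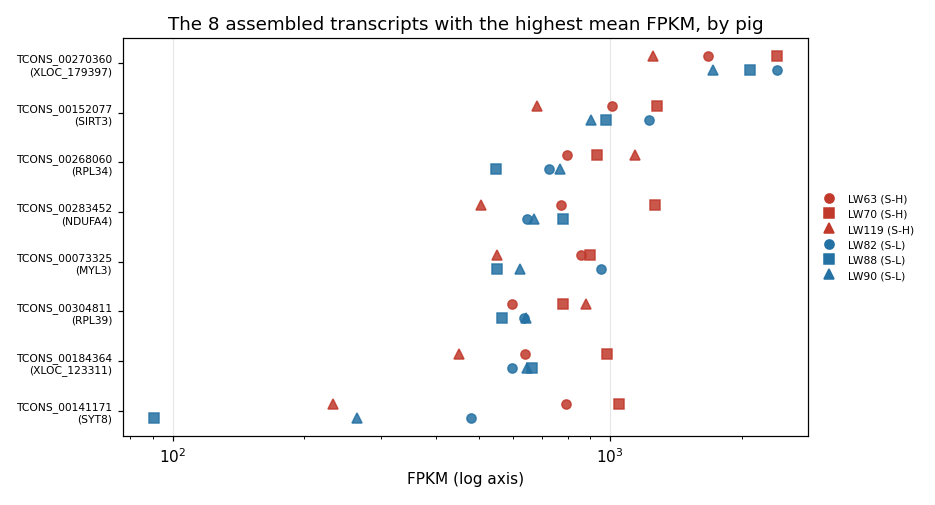
FPKM (log axis) of the 8 assembled transcripts with the highest mean, with the host gene or locus in brackets; each point is 1 pig, red for S-H and blue for S-L. The groups overlap in each row but that of RPL34, and TCONS_00141171, assigned to SYT8, has the widest range, from 90.5 to 1045 FPKM.

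Like the SYT8 transcript, other assembled transcripts reach from their host over a neighbouring gene. These were chosen after their values were seen. TCONS_00203368 (chromosome 5, 64116150 to 64134080) begins with IFFO1, an intermediate filament family gene, and had 346, 154 and 380.3 FPKM in S-H and 274, 371 and 353 FPKM in S-L. It ends just past the Ensembl span of GAPDH, the glycolytic enzyme (64129680 to 64133991), and inside its RefSeq span (64129678 to 64135194). Known IFFO1 transcripts summed to at most 0.687 FPKM. TCONS_00013113 (chromosome 1, 236398081 to 236410394) is assigned to CA9, a carbonic anhydrase, and runs 9572 bases past it over TPM2, the beta tropomyosin of muscle, with 46.5, 137 and 538 FPKM in S-H and 122, 188 and 66.7 FPKM in S-L. TCONS_00283322 (chromosome 9, 76324544 to 76349272), assigned to the mitochondrial carrier gene SLC25A13, spans RefSeq SEM1 and held 98.9% ± 0.463 (SD, n = 6) of the sum of SLC25A13. In the mitochondrial genome TCONS_00294274 (MT, 6511 to 14755), assigned to ND5, a subunit of complex I, reaches back over the genes from COX1 to ND5 and had between 224 and 466 FPKM, beside 144 to 413 FPKM for the known ND5 transcript.

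For the transcripts in host genes with a mean summed level of at least 1 FPKM, 7740 in 3177 genes, the share of the host gene was computed in each pig. The median share was 8.62%, with quartiles of 2.82% and 21.2%. A mean share above 50% was found for 721 (9.32%) and above 90% for 216. Summed per gene, assembled transcripts held a median of 32.3% of the summed FPKM, more than 50% in 1182 of the 3177 genes (37.2%) and more than 90% in 547. Shares were not fixed between pigs: among the 3555 transcripts with a mean share of at least 10%, the median SD over the 6 pigs was 10.2 percentage points.

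The known transcripts were listed at 0 in every pig in 502 host genes, which held 1061 assembled transcripts, and 140 of these genes had a mean sum of at least 1 FPKM. Of these 140 genes, 78 have a symbol, 16 of them small RNA genes. In 43 cases 1 assembled transcript was the only transcript of its host above 0. Since these shares tie at 100%, those with the highest FPKM are given, a choice made after seeing the values: RPL39, SYT8, CSRP3, COX17, SMIM26 and C22orf15. CSRP3, the muscle LIM protein of the Z-disc, had TCONS_00143696 (chromosome 2, 40215346 to 40240675) at 81.4, 95.9 and 174 FPKM in S-H and 29.1, 155 and 19.5 FPKM in S-L. It extends the known transcript by only 7 bases at 1 end and 57 bases at the other, and its level varied widely within both groups.

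COX17, the copper chaperone of cytochrome c oxidase, had TCONS_00068738 (chromosome 13, 140584289 to 140596117) at between 25.9 and 41.5 FPKM. SMIM26, a small membrane protein, had TCONS_00127339 (chromosome 17, 26804739 to 26807371) at between 18.9 and 29.9 FPKM. TCONS_00095372 (chromosome 14, 49921585 to 49926033), assigned to C22orf15, had between 14.8 and 27.3 FPKM and also overlaps CHCHD10, a mitochondrial protein gene. In these genes the level known from the annotation is 0 and the level of the gene rests on the assembled transcript. EIF1, an initiation factor of translation, was carried by a pair of assembled transcripts, TCONS_00056277 with 64.5% ± 9.06 and TCONS_00056278 with 35.5% ± 9.06 (SD, n = 6 each).

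In some hosts an assembled transcript was high in some pigs and at 0 in others while another took its place. A value of 0 in at least 1 pig and of at least 10 FPKM in another was found for 99 assembled transcripts, of 436 that reached 10 FPKM in any pig. Of the 99, 88 had an Ensembl host, 17 of them with a host sum that stayed within 2-fold over the pigs, and 2 of the 99 passed the test between the groups. RPL38, of the large ribosomal subunit, is an example chosen after its values were seen, with 3 assembled transcripts that share the same start on chromosome 12. TCONS_00055178 (6884774 to 6889925) had 993, 427 and 471 FPKM in LW70, LW82 and LW90, and 0 in LW63, LW119 and LW88. TCONS_00055176 (6884774 to 6889922) had 189, 426 and 234 FPKM in LW63, LW119 and LW88, and at most 0.0454 FPKM in LW70, LW82 and LW90. The third, TCONS_00055177, was present in all 6 pigs, with between 24.6 and 520 FPKM. The sum of RPL38 over all transcripts lay between 600.4 and 1019.9 FPKM, and the pigs in which a transcript was high came from both groups. HYPK, a partner of the N-terminal acetylation machinery, was also chosen after its values were seen. TCONS_00023212 had between 284 and 779 FPKM in LW63, LW70, LW88 and LW90. TCONS_00023215 had 283 FPKM in LW119 and 502 FPKM in LW82, and each was listed at 0 where the other was high. They reach 62614 and 15529 bases outside HYPK, respectively, and both overlap SERINC4, SERF2 and MFAP1. The known HYPK transcript had at most 4.13 FPKM, and the known SERF2 transcripts summed to between 8.57 and 426 FPKM.

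The groups were compared with limma on log2(FPKM + 0.1), fitted over every transcript whose mean reached 0.1 FPKM. A fold change on this scale understates that of weak transcripts. Of the 12692 assembled transcripts, 9099 were tested, and a transcript passed at an unadjusted p below 0.01 where the log2 fold change was 1 or more in size. In all, 100 passed (1.10%), against 1.25% of the 40336 transcripts of every class. Higher in S-H were 59 (0.648%, against 0.751% over all) and lower were 41 (0.451%, against 0.496%). The assembled transcripts thus passed at about the rate of all transcripts. The median log2 fold change was 0.08 over the assembled transcripts tested and 0.14 over all transcripts tested. An unadjusted p below 0.05 was reached by 433 (4.76%), against 5.57% of all.

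After Benjamini-Hochberg adjustment over all transcripts in limma, 1 of the 9099 assembled transcripts had an adjusted p below 0.05. Over all transcripts it was 34 of 40336 (0.0843%), a higher rate. The pigs of the groups did not overlap for 888 of the 9099 tested (9.76%), against 11.3% over all, and for each of the 100 that passed. The balance of directions changed with the scaling. With quantile normalization 96 passed, 47 higher and 49 lower, and the median over all transcripts went from 0.14 to 0.00. The number depended on the pseudocount, with 33 passing at a pseudocount of 1. A value of 0 in at least 1 pig was held by 57 of the 100 and in all pigs of 1 group by 25. No fold is given for the latter. The unadjusted limma p was 0.00996 for the last transcript inside the threshold and 0.01001 for the first outside it.

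Among the transcripts that were higher in S-H, TCONS_00246124 (chromosome 7, 116787432 to 116790935) had the largest difference. It is assigned to GLRX5, the mitochondrial glutaredoxin of iron-sulphur cluster assembly, and had 37.2, 39.7 and 11.6 FPKM in LW63, LW70 and LW119, and was listed at 0 in LW82, LW88 and LW90 (limma, adjusted p = 0.00909). The only known GLRX5 transcript had 4.57, 4.56 and 1.72 FPKM in S-H and 6.98, 5.40 and 3.51 FPKM in S-L, so the groups overlapped there, and the assembled transcript shares the start of the gene. The sum of GLRX5 passed as well, with a log2 fold change of 2.49 ± 0.47 (SE, limma, adjusted p = 0.313), but it contains the assembled transcript. The rest of the gene, which is the known transcript, had a log2 fold change of -0.61.

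SOD1, the cytosolic superoxide dismutase, had TCONS_00071000 (chromosome 13, 195326501 to 195337749) at 9.50, 44.0 and 45.9 FPKM in S-H and 0.245, 7.15 and 0.190 FPKM in S-L, a log2 fold change of 4.90 ± 1.32 (SE, limma, adjusted p = 0.755). A second assembled SOD1 transcript, TCONS_00071003 (195332694 to 195337749), ran the other way, with 38.5, 0.652 and 0.139 FPKM in S-H and 27.5, 38.0 and 20.9 FPKM in S-L, and did not pass. LW63 resembled the S-L pigs in both. Summed SOD1 was 48.0, 44.7 and 46.1 FPKM in S-H and 27.7, 46.2 and 22.4 FPKM in S-L and did not pass. The call was lost without LW70, LW119, LW82 or LW90, with log2 fold changes from 4.09 to 6.41 when single pigs were left out, and with quantile normalization (4.81) or median-ratio size factors (4.77).

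BET1, a SNARE protein of transport between endoplasmic reticulum and Golgi, had TCONS_00283173 (chromosome 9, 73782168 to 73792693) at 4.44, 4.24 and 3.16 FPKM in S-H, at 0.317 FPKM in LW88 and at 0 in LW82 and LW90 (log2 fold change 4.64 ± 0.64, SE, limma, adjusted p = 0.117). In S-L the gene was held by other transcripts: TCONS_00283170 had 6.84 FPKM in LW82 and 6.49 FPKM in LW90, and the known ENSSSCT00000075095 had 11.7 FPKM in LW88. Summed BET1 was between 7.72 and 9.30 FPKM in S-H and between 9.20 and 16.7 FPKM in S-L.

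TCONS_00081269 (chromosome 13, 157401790 to 157418674) belongs to a gene without a symbol, ENSSSCG00000045444, and runs 8427 bases past it across RPL24, a ribosomal protein gene. It had 21.3, 4.014 and 6.51 FPKM in S-H and 0.462, 0.170 and 0.203 FPKM in S-L (log2 fold change 4.54 ± 0.67, SE, limma, adjusted p = 0.146). LW63 was far above the other S-H pigs, and without it the difference was still 3.86.

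The last of the 6 largest increases lay in the SLA region, the major histocompatibility complex of the pig, whose gene copies are nearly identical, so that reads may be placed in the wrong copy and the values are uncertain. TCONS_00248409 (chromosome 7, 24848025 to 24851109), in the span of the RefSeq pseudogene SLA-DRB4, had 5.38, 2.03 and 5.80 FPKM in S-H and 0.0796, 0.194 and 0.0571 FPKM in S-L (log2 fold change 4.34 ± 0.53, SE, limma, adjusted p = 0.0867). TCONS_00240042 (chromosome 7, 22869713 to 22962547) had 3.36, 4.69 and 0.995 FPKM in S-H, 0.128 FPKM in LW82 and 0 in the other S-L pigs. Its host, ENSSSCG00000001229, did not differ beyond the spread between pigs, with sums from 54.2 to 69.2 FPKM in S-H and from 49.6 to 92.3 FPKM in S-L (limma, unadjusted p = 0.929).

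Of the 117 assembled transcripts between 22 and 26 Mb of chromosome 7, a window chosen after values were seen, 91 were tested and 7 passed. Over all transcripts 1.25% passed, but 5 of the 7 share a host, so this comparison is not a test of the region. The 5 in ENSSSCG00000041364 were split in direction, with 4 higher and 1 lower in S-H. The lower one, TCONS_00247927 (chromosome 7, 22824412 to 22959458), was listed at 0 in the 3 S-H pigs and had 2.67, 1.05 and 1.14 FPKM in S-L (limma, adjusted p = 0.0964).

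FAM13A gave 3 of the 6 largest decreases. The gene has been studied in the lipid metabolism of adipocytes. TCONS_00261560 (chromosome 8, 130221775 to 130258700) had 0.139 FPKM in LW63 and 0 in LW70 and LW119, against 2.54, 0.439 and 6.397 FPKM in S-L (log2 fold change -3.97 ± 0.95, SE, limma, adjusted p = 0.615). TCONS_00261557 (130221775 to 130256232) had at most 0.102 FPKM in S-H and 1.47, 0.944 and 3.28 FPKM in S-L (-3.78 ± 0.59, adjusted p = 0.203). TCONS_00261566 (130221775 to 130293690) had at most 0.366 FPKM in S-H and 1.30, 1.67 and 2.13 FPKM in S-L (-2.95 ± 0.63, adjusted p = 0.473).

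All 17 tested of the 19 assembled FAM13A transcripts had the lower mean in S-H, with log2 fold changes from -3.97 to -0.65 and a median of -1.74, and 5 passed. Summed FAM13A was 4.20, 1.86 and 6.48 FPKM in S-H and 18.3, 15.1 and 38.9 FPKM in S-L and fell by 2.54 on the log2 scale (SE 0.49, limma, adjusted p = 0.313). In contrast to BET1, the sum fell along with the assembled transcripts, but it contains them and they made up most of it. It therefore cannot show on its own whether the rest of the gene moved too. With each of the 5 that passed left out in turn, the rest of FAM13A had log2 fold changes from -2.57 to -2.39. That rest still contains the other assembled transcripts. The known FAM13A transcripts summed to between 0.614 and 1.85 FPKM in S-H and between 1.65 and 3.97 FPKM in S-L, so the groups overlapped there. The call of TCONS_00261560 was lost without LW70, LW119, LW82 or LW90 (-4.95 to -3.16) and that of TCONS_00261566 without LW88 or LW90 (-3.45 to -2.34).

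RPS25, of the small ribosomal subunit, had TCONS_00281406 (chromosome 9, 46237424 to 46242432) at 2.98 FPKM in LW63 and 0 in LW70 and LW119, against 6.70, 30.4 and 24.9 FPKM in S-L (log2 fold change -5.79 ± 1.40, SE, limma, adjusted p = 0.642). An assembled transcript with the same ends, TCONS_00281405, had between 20.0 and 55.8 FPKM over the 6 pigs, and summed RPS25 did not differ (log2 fold change -0.01 ± 0.26, SE, limma, unadjusted p = 0.975). The call was lost without LW70, LW119, LW88 or LW90 (-7.43 to -4.96). TCONS_00003404 (chromosome 1, 56092155 to 56104626), in a gene without a symbol, ENSSSCG00000044113, had 0.153, 0 and 0.685 FPKM in S-H and 1.49, 3.88 and 4.13 FPKM in S-L (-3.46 ± 0.82, limma, adjusted p = 0.600), a call lost without LW63, LW88 or LW90 (-4.23 to -2.75).

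**Figure D3:**
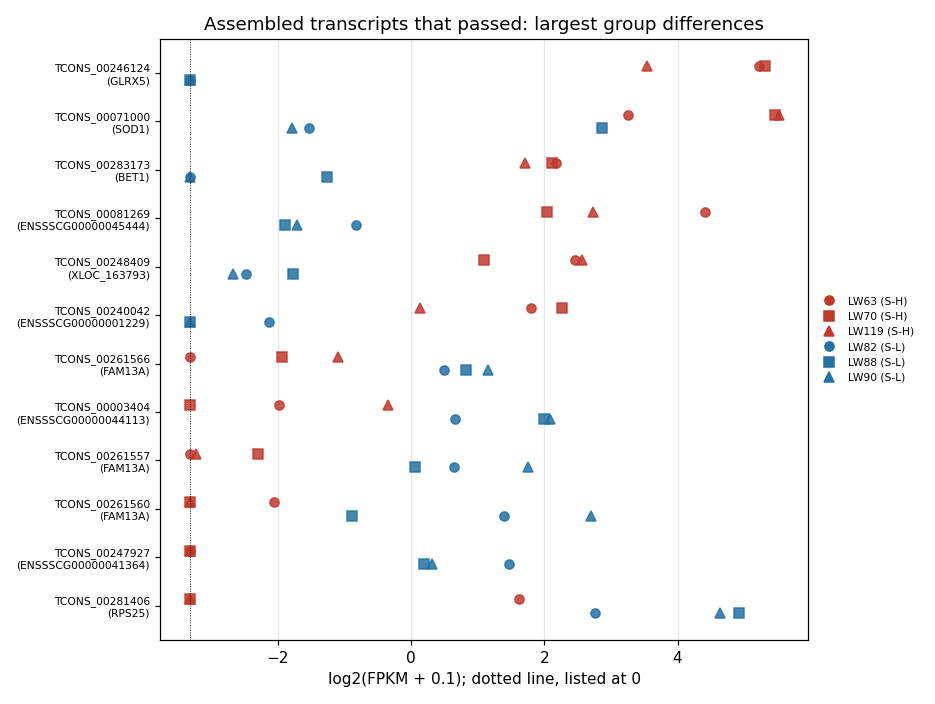
Log2(FPKM + 0.1) in each pig for the 12 assembled transcripts that passed with the largest log2 differences in either direction, red for S-H and blue for S-L, with points at the dotted line for values of 0 (several pigs can share that point). The colours do not overlap within any row; SOD1 comes closest, where LW63 and LW88 are next to each other.

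The host gene seldom moved with the transcript. Among the 100, 87 had an Ensembl host, in 73 genes, and for 83 the rest of the host gene, without that transcript, had a mean of at least 0.1 FPKM. The rest moved by less than 1 on the log2 scale in 67 cases, by at least 1 in the same direction in 11 and by at least 1 in the opposite direction in 5. Of the host gene sums, 54 of 4865 passed in limma (1.11%), 34 higher and 20 lower, against 1.25% of all Ensembl gene sums, and 19 of the 87 transcripts lay in such a host. With quantile normalization the balance turned to 18 higher and 36 lower, with median-ratio size factors to 18 and 33, and the count ran from 31 (without LW90) to 93 (without LW82) with a pig left out, with 34 without LW63. In 4 host genes transcripts passed in both directions. One was BLOC1S1, a subunit of a complex for lysosome-related organelles, where TCONS_00200565 had 2.91, 2.03 and 3.96 FPKM in S-H and 0.345, 0.642 and 0.721 FPKM in S-L and TCONS_00200564, with the same ends (chromosome 5, 21137879 to 21148187), had 0.404, 0.573 and 0.666 FPKM in S-H and 1.51, 1.28 and 1.84 FPKM in S-L. Both transcripts lie mostly outside BLOC1S1, reaching 9888 bases beyond its span, and overlap ITGA7, the only RefSeq gene there. The call of TCONS_00200564 was lost without any 1 of the 6 pigs (-1.48 to -1.18).

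**Figure D4:**
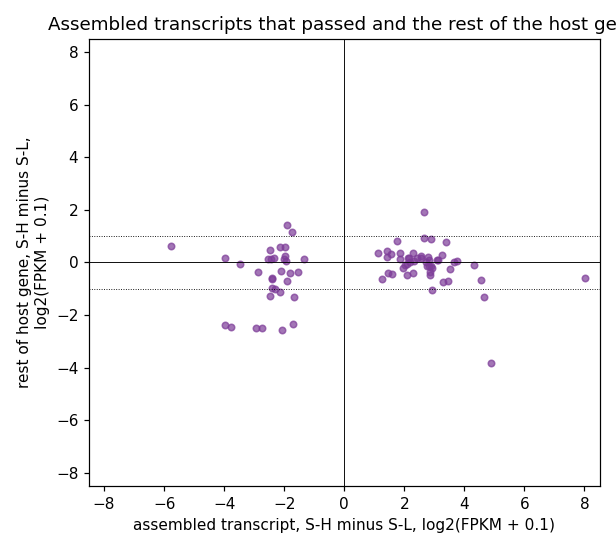
For the 83 assembled transcripts that passed and whose host gene had other transcripts at a mean of at least 0.1 FPKM, the difference S-H minus S-L on log2(FPKM + 0.1) of the transcript (horizontal axis) and of the rest of the host gene (vertical axis). Between the dotted lines, at -1 and 1, lie 67 points; no point lies between -1 and 1 on the horizontal axis because of the threshold.

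A further pair of transcripts that passed, of DBI and RBM20, was chosen after their values were seen. DBI, which binds acyl-CoA esters, was carried by TCONS_00102328 (chromosome 15, 24895439 to 24906920), with 21.7, 20.0 and 13.4 FPKM in S-H and 8.18, 10.3 and 6.17 FPKM in S-L (log2 fold change 1.15 ± 0.31, SE, limma, adjusted p = 0.758). It was lost without LW63, LW70, LW82 or LW90 (0.96 to 1.36) and with quantile normalization (0.97) or median-ratio size factors (1.01). RBM20, which controls the splicing of titin, had TCONS_00091036 (chromosome 14, 121208836 to 121228281) at 0.200, 0.212 and 0.280 FPKM in S-H and 0.617, 2.13 and 2.66 FPKM in S-L (-2.32 ± 0.58, limma, adjusted p = 0.702). Summed RBM20, which contains this transcript, passed too (-1.18 ± 0.29), and the rest without it had a log2 fold change of -1.01. The call of the RBM20 transcript was lost without any single pig other than LW82 (-2.92 to -1.94).

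The share of the host gene was compared in the same way, with limma on arcsine square root shares over all 25352 transcripts of Ensembl genes that met the minimum levels, and passed at an unadjusted p below 0.01 with at least 10 percentage points between the group means. Of 5443 assembled transcripts tested, 41 passed (0.753%, against 0.982% over all), 24 with a higher and 17 with a lower share in S-H. An adjusted p below 0.05 was reached by 3 of the 5443, against 39 of the 25352 over all (0.154%), a higher rate. An unadjusted p below 0.05 was reached by 203 of the 5443. The rate over all 25352 at that level is not given here, so this count cannot be set against it. Of the 41, 26 had also passed for their level, and 3 lay in a host gene whose sum passed.

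The 3 with an adjusted p below 0.05 belonged to GLRX5, BET1 and SNRNP25. TCONS_00246124 held 89.1%, 89.7% and 87.1% of GLRX5 in S-H and 0% in each S-L pig (limma, adjusted p = 0.00605). TCONS_00283173 held 50.9%, 45.6% and 41.0% of BET1 in S-H and 0%, 1.90% and 0% in S-L (adjusted p = 0.0368). SNRNP25, a protein of the minor spliceosome, had TCONS_00175979 (chromosome 3, 41568033 to 41571634) at 0% in each S-H pig and at 14.1%, 13.7% and 13.6% in S-L (adjusted p = 0.0403), although its level there was at most 0.492 FPKM. The shares within each group differed by less than 10 percentage points in all 3, and no pig left out brought the unadjusted limma p above the threshold of 0.01. Whether the adjusted p stayed below 0.05 was not tested.

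Of the other large increases in share, TCONS_00184416 (chromosome 4, 38491245 to 38545028) held 45.9%, 55.0% and 51.5% of NIPAL2, a gene of the magnesium transporter family, in S-H, 18.3% in LW82 and 0% in LW88 and LW90. TCONS_00276440 (chromosome 9, 107456327 to 107483297) held 48.4%, 41.6% and 26.6% of CBLL1, a ubiquitin ligase, in S-H and 0%, 0% and 3.58% in S-L. TCONS_00052528 (chromosome 12, 45763519 to 45767684) held 77.6%, 77.8% and 82.5% of TP53I13, a p53-inducible gene, in S-H and 62.8%, 33.2% and 39.4% in S-L. Leaving out single pigs did not end the call for CBLL1, but ended that for NIPAL2 without any pig but LW82 (41.7 to 50.8 points) and for TP53I13 without any pig but LW82 (28.2 to 43.0 points).

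The 5 largest decreases in share lay in MMD, PBX3, ENSSSCG00000044113, TLE1 and SETBP1. TCONS_00057127 (chromosome 12, 31692859 to 31723721) held 26.7%, 43.5% and 8.93% of MMD, a membrane protein first described in macrophages, in S-H and 70.1%, 70.6% and 69.0% in S-L. TCONS_00014861 (chromosome 1, 266603054 to 266610646) held 34.6%, 36.1% and 9.68% of the homeodomain factor PBX3 in S-H and 69.1%, 70.1% and 64.6% in S-L. TCONS_00028597 (chromosome 1, 234338155 to 234370593) held 23.0%, 31.9% and 38.6% of the co-repressor TLE1 in S-H and 57.3%, 66.8% and 64.4% in S-L. In each the shares of the S-L pigs lay within 10 percentage points.

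TCONS_00005354 (chromosome 1, 94294929 to 94487026) held 17.0%, 17.98% and 22.1% of SETBP1, which binds the SET protein, in S-H and 47.8%, 45.6% and 35.9% in S-L, and TCONS_00003404 held 5.68%, 0% and 10.2% of ENSSSCG00000044113 in S-H and 39.3%, 43.6% and 48.5% in S-L. Each of the 5 had an adjusted p of at least 0.318 in limma. For MMD, PBX3, TLE1 and SETBP1 the summed gene did not pass, and the call was lost without LW63, LW82, LW88 or LW90 for MMD (-52.1 to -34.8 points) and PBX3 (-45.8 to -32.5), without LW63, LW70, LW88 or LW90 for TLE1 (-35.4 to -27.6) and without any pig but LW90 for SETBP1 (-27.6 to -21.7). For ENSSSCG00000044113 no pig left out ended it.

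**Figure D5:**
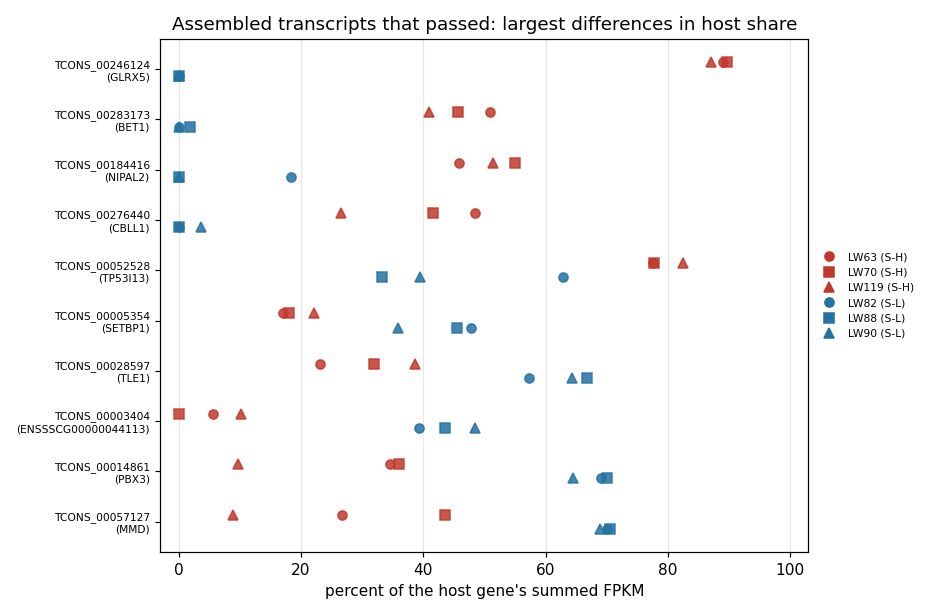
Percent of the summed FPKM of the host gene held by each of 10 assembled transcripts in each pig, red for S-H and blue for S-L, for the 5 largest increases and 5 largest decreases in share among those that passed. The pigs of the groups do not overlap in any row, and the gap is widest for GLRX5, 87.1% to 89.7% against 0%.

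Lists of genes for muscle and lipid biology were compared through the assembled transcripts they host. Over all transcripts tested, 1.25% passed and 5.57% had an unadjusted limma p below 0.05. The sarcomere and Z-disc list had 27 in 9 genes. Of 25 tested, 1 passed, TCONS_00115743 (chromosome 15, 113034279 to 113063234) of MYL1, the essential light chain of fast myosin, with 29.8, 44.7 and 11.6 FPKM in S-H and 66.7, 112 and 89.95 FPKM in S-L (log2 fold change -1.81 ± 0.51, SE, limma, adjusted p = 0.784). It made up 2.52% ± 1.58 (SD, n = 6) of MYL1, whose sum did not pass, and the call was lost without LW63, LW82, LW88 or LW90 (-2.23 to -1.26) and with median-ratio size factors (-1.95). Over the list the log2 fold change had a median of 0.11, against 0.14 for all transcripts tested.

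The lipid storage and adipocyte list had 38 assembled transcripts in 7 genes, 34 of them tested. The 5 that passed were all lower and all of FAM13A, so that the median of -0.91 reflects that gene: the 17 tested from the other 6 genes had a median of 0.52, none passed, and 1 had an unadjusted p below 0.05 in limma. The strongest of the list was TCONS_00203718 (chromosome 5, 68755546 to 68807592) of the adiponectin receptor gene ADIPOR2, with 3.29, 4.89 and 2.08 FPKM in S-H and 5.83, 0.617 and 2.39 FPKM in S-L.

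None passed in the other 6 lists, which are too small to be told apart from the 1.25% that passed over all transcripts. An unadjusted limma p below 0.05 was reached by 1 transcript for calcium release and reuptake, 2 for fatty acid oxidation, 3 for transcription factors and 0 in the other 3 lists. Calcium release and reuptake (10 tested, median log2 fold change -0.46) was led by TCONS_00280708 of SLN, sarcolipin, the inhibitor of the calcium pump (chromosome 9, 36232968 to 36242405), with between 31.2 and 55.7 FPKM, or 17.3% ± 2.57 (SD, n = 6) of the gene. Glycolysis and glycogen (4 tested, median 0.21) was led by TCONS_00065232 of GYG1, the glycogenin that primes glycogen (chromosome 13, 89221149 to 89259815), which ranged from 0.240 to 18.7 FPKM within S-H alone.

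Fatty acid oxidation and mitochondrial energy metabolism (10 tested, median -0.62) was led by TCONS_00228623 of COX7A1, the muscle form of a cytochrome c oxidase subunit (chromosome 6, 45511335 to 45520714), with 48.0, 168 and 94.2 FPKM in S-H and 89.98, 103.4 and 101.4 FPKM in S-L. The 6 transcripts of PPARGC1A, a co-activator of mitochondrial genes, are among these 10, with log2 fold changes from -2.19 to -0.50, so the list median is largely that of 1 gene. None of the 6 passed, but summed PPARGC1A did (log2 fold change -1.54 ± 0.42, SE, limma, adjusted p = 0.639). Its known transcripts summed to 8.15, 19.4 and 12.7 FPKM in S-H and 20.6, 49.4 and 36.6 FPKM in S-L, without overlap. Extracellular matrix (9 tested, median 0.11) held only ELN, elastin, led by TCONS_00164474 (chromosome 3, 11214073 to 11245954) with between 2.32 and 5.98 FPKM.

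Protein turnover and growth signalling (10 tested, median 0.35) was led by TCONS_00183122 of FBXO32, the atrogin-1 ubiquitin ligase (chromosome 4, 15894771 to 15930944), with between 0.900 and 11.7 FPKM. Transcription factors and chromatin of muscle (31 tested, median -0.19) was led by TCONS_00017897 of EYA4, a transcriptional co-activator and phosphatase (chromosome 1, 30363658 to 30428477). It had 1.95, 1.65 and 7.62 FPKM in S-H and 10.2, 8.46 and 22.7 FPKM in S-L, without overlap but short of the threshold (log2 fold change -2.06 ± 0.66, SE, limma, adjusted p = 0.848).

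Of the 100 that passed, 13 were not assigned to an Ensembl gene. After the transcripts within HBB and RefSeq COX6C, the strongest were TCONS_00240031 (chromosome 7, 22825007 to 22827966) in the span of the class I gene SLA-1, TCONS_00176414 (chromosome 3, 46380524 to 46381614) and TCONS_00210776 (chromosome 5, 63670291 to 63681376) over the span of RefSeq C1S, a serine protease of the complement system. They had between 103.2 and 324 FPKM, between 80.2 and 154 FPKM and between 29.3 and 74.4 FPKM, respectively. The groups overlapped in each.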

How the data were processed

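Libraries from the LD muscle of 6 pigs, 3 per group, were analysed. According to the paper's methods, the authors removed ribosomal RNA, made strand-specific libraries, aligned the reads with Hisat2, assembled and quantified transcripts with StringTie and screened them for lncRNAs. The deposited values are FPKM per transcript, computed by the authors. The 21104 Ensembl transcripts without a symbol were found from their values to be TPM and were multiplied by 1 factor per pig, between 0.639 and 0.847, set so that the FPKM of a library and its TPM share 1 scale (TPM sums to 1000000). The division of reads among overlapping transcripts by StringTie cannot be checked from these values. Strand and exons are not in the table, and no sequence is given.

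Members and gene lists were chosen with earlier results of these data known. Level was tested with limma 3.58.1 in R 4.3.3 (trend, log2(FPKM + 0.1), mean at least 0.1 FPKM). Share was tested over genes with at least 2 transcripts, a sum of at least 1 FPKM in every pig and a mean share of 1% to 99%. Single values were compared by exact permutation and classes within pigs by exact sign flips, in Python 3.11.15. Adjusted p values are Benjamini-Hochberg values over all transcripts or genes tested. Named are the 8 highest means, the 6 largest differences in each direction among those that passed without overlap, the 5 largest share differences in each direction, the 6 highest shares in hosts with a symbol, the highest of each list and the 5 highest without an Ensembl host. Others are named as chosen after seeing values. Symbols came from the table for 3128 host genes and from a gene name table for 204. The fits were tested on simulated data. Pigs are separate animals, but each gave 1 library, so animal and library spread cannot be told apart.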

Additional observations from a re-analysis of the deposited data

How the results depend on the processing

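The number of assembled transcripts that passed for level was 100 and lay between 96 and 144 with another scaling, variance setting, pseudocount of 0.01, no minimum level, the values as deposited or a pig left out (97 to 144). It was 33 with a pseudocount of 1, 19 with a mean of at least 1 FPKM and 1 with an adjusted p below 0.05 (limma). Of the 100, between 46 and 55 passed again when a pig was left out. The split of 59 higher and 41 lower became 65 and 31 with TPM, 51 and 49 with median-ratio size factors and 47 and 49 with quantile normalization. The count for share, 41, was 80 with a host sum of at least 0.1 FPKM, 5 with at least 5 FPKM, 3 with an adjusted p below 0.05, 31 untransformed and between 47 and 74 with a pig left out, the last without LW88. Host gene sums that passed, 54, were 23 with a pseudocount of 1 and between 31 (without LW90) and 93 (without LW82) with a pig left out, 34 of them without LW63. The host sums were 34 higher and 20 lower, but 18 and 33 with median-ratio size factors, 18 and 36 with quantile normalization and 59 and 13 with TPM. The cause of these changes was not tested, apart from the smaller number of transcripts or genes under a stricter minimum.

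The group difference in the share of the library stayed positive, from 0.558 to 0.982 points with a pig left out and 0.161 without the structural RNAs, as did that in the number of transcripts above 0 (231 to 448). Against known transcripts, the difference in the share detected turned to -2.83 points above 1 FPKM. With 5 pigs no sign-flip p can fall below 0.0625. The differences were then 4.46 to 5.16 points (lncRNAs) and 21.7 to 21.99 points (known) for detection and 0.34 to 0.39 (lncRNAs) and -0.39 to -0.33 (known) for the median log2 FPKM. For 48 levels and shares of single transcripts that passed, no alternative turned the direction, and 20 held in every alternative run for them, among them both results of GLRX5, BET1, CBLL1 and UBE2E2. The reads behind single values are not in the table, so a listed 0 does not show absence. No paired analysis was possible because each group holds its own animals and their numbers pair none of them.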

Other observations

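UBE2E2, a ubiquitin-conjugating enzyme gene, had an assembled transcript that passed for both level and share and held in every alternative. TCONS_00060262 (chromosome 13, 9998176 to 10043406) had 2.58, 2.19 and 3.31 FPKM in S-H and 0.326, 0.128 and 0.132 FPKM in S-L, which was 18.6% ± 2.50 and 0.930% ± 0.295 (SD, n = 3 each) of the gene (limma, adjusted p = 0.0997 for level and 0.0881 for share). Summed UBE2E2 overlapped between the groups, with 10.5 to 20.8 FPKM in S-H and 15.1 to 25.9 FPKM in S-L. ZMYM4, a zinc finger gene, had TCONS_00221623 (chromosome 6, 91455778 to 91541602) at 0.383, 1.53 and 1.85 FPKM in S-H and at 0 in each S-L pig, while its sum lay between 6.19 and 10.5 FPKM in both groups. In ENSSSCG00000042756, a gene without a symbol, TCONS_00237802 held 15.4%, 13.3% and 10.1% in S-H and 0% in S-L, and TCONS_00237803, whose end differs by a few bases on chromosome 6 (170607380 to 170615163 and to 170615168), held 3.71%, 3.61% and 4.37% in S-H and 32.6%, 33.3% and 15.5% in S-L. The share of TCONS_00237803 lost its call without any pig but LW90 (-29.1 to -20.2 points). The transcripts in this closing part were chosen after their values were seen.

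Being above 0 in all pigs of 1 group and at 0 in all pigs of the other was seen for 84 assembled transcripts (0.662%) in the direction of S-H and for 32 (0.252%) in that of S-L. For lncRNAs the numbers were 56 (0.758%) and 24 (0.325%), and for known transcripts 260 (0.412%) and 150 (0.238%). Unplaced scaffolds carried 393 assembled transcripts, with 1.31% of the summed FPKM of assembled transcripts. Of the 263 tested, 5 passed, where 100 of all 9099 assembled transcripts tested (1.10%) and 1.25% of transcripts of every class passed. TCONS_00064435 (chromosome 13, 75843189 to 75845070), in ENSSSCG00000044722, a gene without a symbol, was the strongest transcript after MYL1 to pass, with 13.8, 10.2 and 6.68 FPKM in S-H and 44.9, 24.9 and 29.9 FPKM in S-L, and held 99.1% ± 0.895 (SD, n = 6) of its gene. Its call was lost without LW82 (-1.95 to -1.43 with single pigs left out, log2 scale).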
